A study of Rattus norvegicus with 8 samples.

Results

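The genes described here are 10 enzymes that modify and crosslink collagen: the lysyl oxidases Lox, Loxl1, Loxl2, Loxl3 and Loxl4, the lysyl hydroxylases Plod1, Plod2 and Plod3, and the prolyl hydroxylase subunits P4ha1 and P4ha2. They were taken by symbol from the 29884 rows of a table of raw counts, and all 10 passed the filter on low counts, which left 16117 genes to test. The table comes from RNA sequencing of the cervix of pregnant Sprague-Dawley rats, labelled wild type, injected into the abdomen on gestational day 17, with tissue taken 12 hours later. The LPS group (4 libraries) received 100 µg/kg of lipopolysaccharide, the endotoxin of Gram-negative bacteria. The PBS group (4 libraries) received the same volume of phosphate-buffered saline. The libraries are from bulk cervical tissue, in which fewer cells of a type and less RNA per cell cannot be told apart. Replicates are described as biological, 4 in each group.

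Collagen chains are hydroxylated in the endoplasmic reticulum before they fold. Prolyl hydroxylases convert prolines to hydroxyprolines, which hold the triple helix together at body temperature, and lysyl hydroxylases convert lysines to hydroxylysines, which decide the kind of crosslink that forms later. Both kinds of hydroxylase need oxygen, iron and ascorbate. Outside the cell, lysyl oxidases, which carry copper, oxidise lysines and hydroxylysines so that neighbouring collagen or elastin molecules join covalently. In the mouse, mature crosslinks become fewer as the cervix softens in pregnancy. Genes of each of these enzyme families are known targets of the hypoxia-inducible factors in mammalian cell types.

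Promoter windows of 300 bases, from 250 before to 50 after an annotated start, were matched by symbol for 8 of the 10 genes in RefSeq sequence of the rat build GRCr8. Lox and Loxl2 were not matched. For 6 of the 8 the window lies at the outermost start of the gene, and for P4ha1 and Loxl4 it lies at an inner one. The windows were searched on both strands for the 5-base core of the hypoxia response element, ACGTG or GCGTG. 4 of them are shown, because Plod2 and P4ha1 were higher after LPS, Loxl4 was lower, and P4ha2, with the most matches, did not pass the test. Capitals mark each match, and a match on the opposite strand reads CACGT or CACGC.
Plod2, chr8:101964068-101964367, plus strand: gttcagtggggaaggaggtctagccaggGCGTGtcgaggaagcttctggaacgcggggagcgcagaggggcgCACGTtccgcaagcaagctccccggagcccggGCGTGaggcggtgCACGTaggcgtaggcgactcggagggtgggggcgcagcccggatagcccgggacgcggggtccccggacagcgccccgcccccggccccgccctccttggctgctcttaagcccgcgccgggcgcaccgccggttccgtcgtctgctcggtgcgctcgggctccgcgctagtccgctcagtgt
P4ha1, chr20:27844796-27845095, plus strand: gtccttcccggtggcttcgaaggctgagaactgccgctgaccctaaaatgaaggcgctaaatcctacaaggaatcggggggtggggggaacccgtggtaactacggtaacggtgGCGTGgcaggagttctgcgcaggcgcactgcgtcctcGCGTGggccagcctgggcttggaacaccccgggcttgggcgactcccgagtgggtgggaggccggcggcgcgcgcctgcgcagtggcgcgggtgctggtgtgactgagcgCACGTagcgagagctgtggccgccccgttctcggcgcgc
P4ha2, chr10:38743644-38743943, plus strand: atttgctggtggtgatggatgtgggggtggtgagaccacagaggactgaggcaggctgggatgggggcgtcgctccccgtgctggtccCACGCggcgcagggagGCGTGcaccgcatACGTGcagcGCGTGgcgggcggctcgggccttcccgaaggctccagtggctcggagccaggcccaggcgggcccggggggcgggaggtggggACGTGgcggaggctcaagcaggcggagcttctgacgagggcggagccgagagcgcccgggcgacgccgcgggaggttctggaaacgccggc
Loxl4, chr1:251365528-251365827, minus strand: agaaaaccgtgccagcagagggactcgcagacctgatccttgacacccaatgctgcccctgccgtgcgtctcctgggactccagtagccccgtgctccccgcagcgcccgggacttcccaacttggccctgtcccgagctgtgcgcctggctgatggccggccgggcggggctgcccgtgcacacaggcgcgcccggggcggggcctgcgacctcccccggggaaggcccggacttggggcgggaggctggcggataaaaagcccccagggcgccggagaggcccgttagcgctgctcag

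Plod2 held 4 matches, P4ha1 held 3, P4ha2 held 5 and Loxl4 held 0, and no match overlapped another. Plod3 held 2, Plod1 and Loxl3 held 1 each and Loxl1 held 0. The core was thus found in 6 of the 8 windows, against 45.8% of the 21842 windows of protein-coding genes. ACGTG searched by itself was found in 3 of the 8, those of Plod2, P4ha1 and P4ha2, against 19.9% of all windows, and GCGTG by itself in 34.7% of all windows. The 8 windows were rich in G and C, at 61.0% to 73.7% against a median of 55.0% over all windows, and 68.4% of all windows lay below the lowest of them. The SMAD motif CAGAC, a short sequence bound by the factors downstream of TGF-beta, was found on either strand in 5 of the 8, against 50.1% of all windows. The genes with a hypoxia core included some that were higher after LPS and some that did not pass the test. Of the genes without a core, Loxl1 was higher after LPS and Loxl4 was lower. Lox, which was also higher, had no window to search.

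After LPS, 5 of the 10 enzyme genes rose, 1 fell and 4 did not pass the test. Those that rose were Lox, the founding lysyl oxidase (3.63-fold), Loxl1 (1.81-fold), Loxl3 (1.72-fold), Plod2 (1.82-fold) and P4ha1 (1.82-fold). Loxl4 fell, to 0.418 of its level in PBS. Each of the 3 enzyme families therefore had at least 1 gene that rose and at least 1 that did not pass. The test was edgeR's quasi-likelihood F test on all 16117 genes, and a gene was called at a Benjamini-Hochberg adjusted p under 0.05. Over all genes tested 9.49% were called higher and 7.45% lower, against 5 and 1 of the 10 enzyme genes. The enzymes were chosen with earlier results of these data known, so this comparison is a description and not a test. The median log2 fold change of the 10 was 0.56, beside 0.01 over all genes tested. In 5 of the 10 every LPS library lay above every PBS library, in 1 every LPS library lay below, and in 4 the groups overlapped. Over all genes tested the groups did not overlap in 23.4%, with the LPS libraries above in 12.9% and below in 10.5%. With 1 library left out the count of genes that rose ran from 2 to 6. It was 2 without PBS replicate 3, 3 without LPS replicate 2, PBS replicate 2 or PBS replicate 4, and 6 without PBS replicate 1, where Plod3 passed as well.

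**Figure D1:**
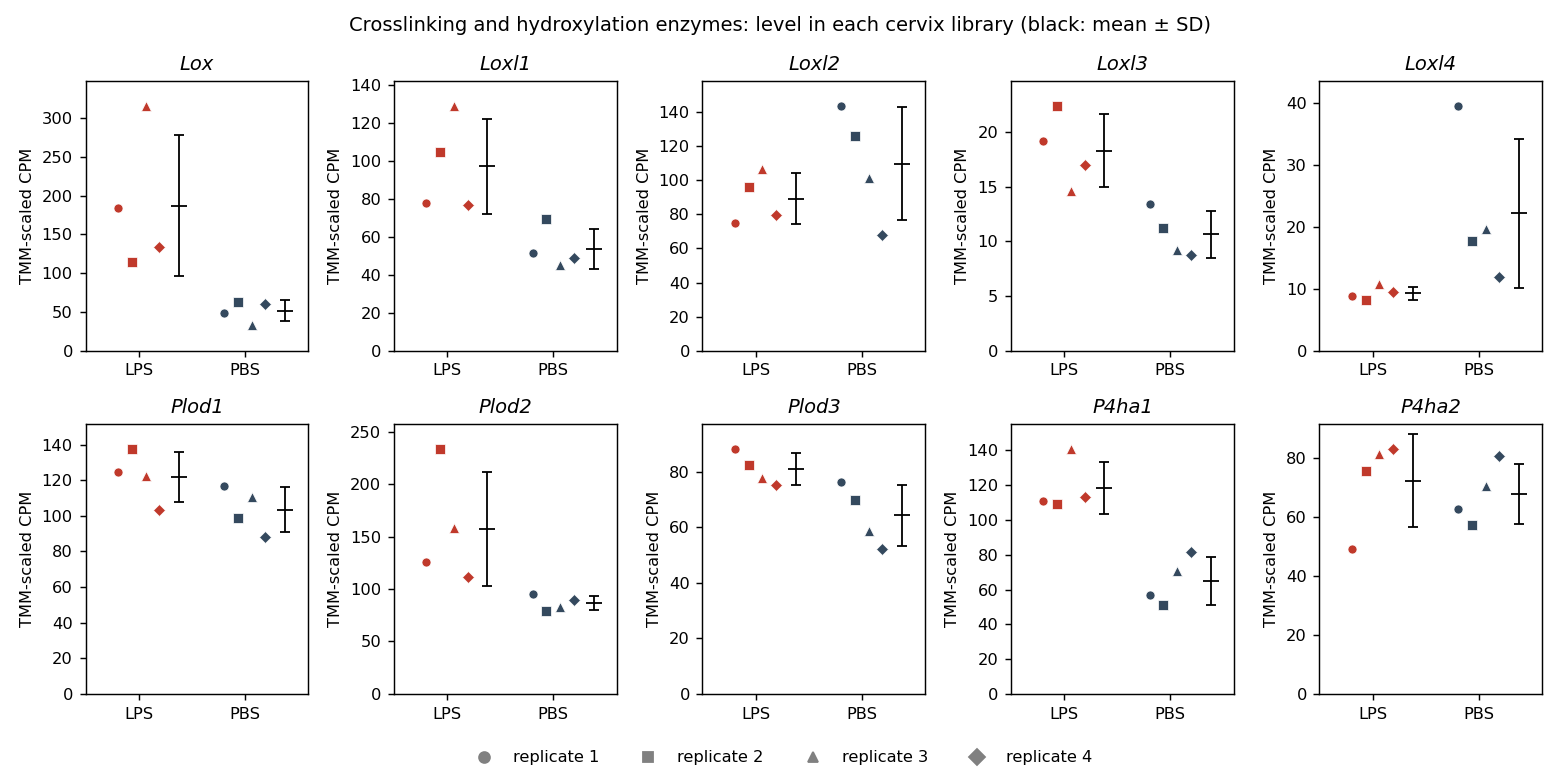
Level of each of the 10 enzyme genes in every library, in TMM-scaled CPM (y axis from 0), LPS libraries in red left of PBS libraries in blue. Marker shapes give the replicate number and the black bar the mean ± SD over 4 libraries. The LPS libraries stand clear of the PBS libraries for Lox, Loxl1, Loxl3, Plod2, P4ha1 and, downward, Loxl4.

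Levels are counts per 1000000 counts of a library (CPM), with library sizes scaled by edgeR's TMM method, with mean ± SD over 4 libraries per group, and they are compared between libraries, not between genes, since transcript lengths were not used. Lox, which crosslinks both collagen and elastin, had 184, 114, 316 and 134 CPM in LPS replicates 1 to 4, against 49.1, 62.7, 33.4 and 60.8 CPM in PBS replicates 1 to 4. The lowest LPS library stood well above the highest PBS library, and LPS replicate 3 stood highest. Lox averaged 187 ± 90.8 CPM in LPS and 51.5 ± 13.5 CPM in PBS, and rose by 1.86 on the log2 scale (SE 0.34, edgeR adjusted p = 0.00863). The call of Lox was kept when any one library was left out, with values of 1.49 (without LPS replicate 3) to 2.03.

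Loxl1, whose loss in mice disturbs the renewal of elastic fibres and leads to pelvic organ prolapse, had 77.8, 105, 129 and 76.8 CPM in LPS replicates 1 to 4, against 51.5, 69.2, 45.2 and 48.8 CPM in PBS replicates 1 to 4. The groups did not overlap, but the gap between LPS replicate 4 and PBS replicate 2 was small. The log2 fold change was 0.86 (SE 0.20, adjusted p = 0.0221, edgeR), and the call was lost without LPS replicate 2, PBS replicate 3 or PBS replicate 4. Loxl3, which is needed in mice for the palate and for the attachment of muscle to tendon, had 19.2, 22.4, 14.6 and 17.0 CPM in LPS replicates 1 to 4, against 13.5, 11.2, 9.19 and 8.75 CPM in PBS replicates 1 to 4. LPS replicate 3, the highest library for Lox and Loxl1, was the lowest LPS library for Loxl3. The log2 fold change of Loxl3 was 0.78 (SE 0.18, adjusted p = 0.0214, edgeR), and its call was lost without LPS replicate 1, LPS replicate 2, PBS replicate 2 or PBS replicate 3. In the RefSeq table of build GRCr8 Loxl3 shares 43 bases with Htra2, and the strand setting of the counts is not given in the sources used here.

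Loxl4, a lysyl oxidase with scavenger receptor domains in its N-terminal part, had 8.77, 8.17, 10.7 and 9.44 CPM in LPS replicates 1 to 4, against 39.6, 17.6, 19.6 and 11.9 CPM in PBS replicates 1 to 4. The LPS libraries lay close together, with a coefficient of variation (SD over mean) of 11.8%, while the PBS libraries spread over 54.3%. The log2 fold change was -1.26 (SE 0.33, adjusted p = 0.0338, edgeR). The call of Loxl4 was lost without any one of the LPS libraries and without PBS replicate 2 or PBS replicate 3, and its value was -0.83, still called, without PBS replicate 1. Loxl2, which crosslinks collagen of basement membranes, had 74.8, 95.8, 107 and 79.3 CPM in LPS replicates 1 to 4, against 144, 126, 101 and 67.9 CPM in PBS replicates 1 to 4. The groups overlapped, and the log2 fold change was -0.30 (SE 0.22, adjusted p = 0.388, edgeR), with a 95% interval of -0.81 to 0.21. The value of Loxl2 was -0.47 without PBS replicate 4 and -0.15 without PBS replicate 1, and neither passed.

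The summed level of 8 smooth muscle markers was 3762, 4551, 5361 and 5498 CPM in LPS replicates 1 to 4, against 12570, 10286, 10887 and 4526 CPM in PBS replicates 1 to 4, so that PBS replicate 4 lay within the range of the LPS libraries. Of these 8 markers 6 fell after LPS, 0 rose and 2 did not pass, beside 7.45% of all genes tested called lower and 9.49% higher. The count that fell was 0 without LPS replicate 1 or PBS replicate 2, 1 without LPS replicate 3 or PBS replicate 3, 2 without LPS replicate 2 or PBS replicate 1, 4 without LPS replicate 4 and 8 without PBS replicate 4. Their part in the values of Loxl4 and Loxl2 was not tested.

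**Figure D2:**
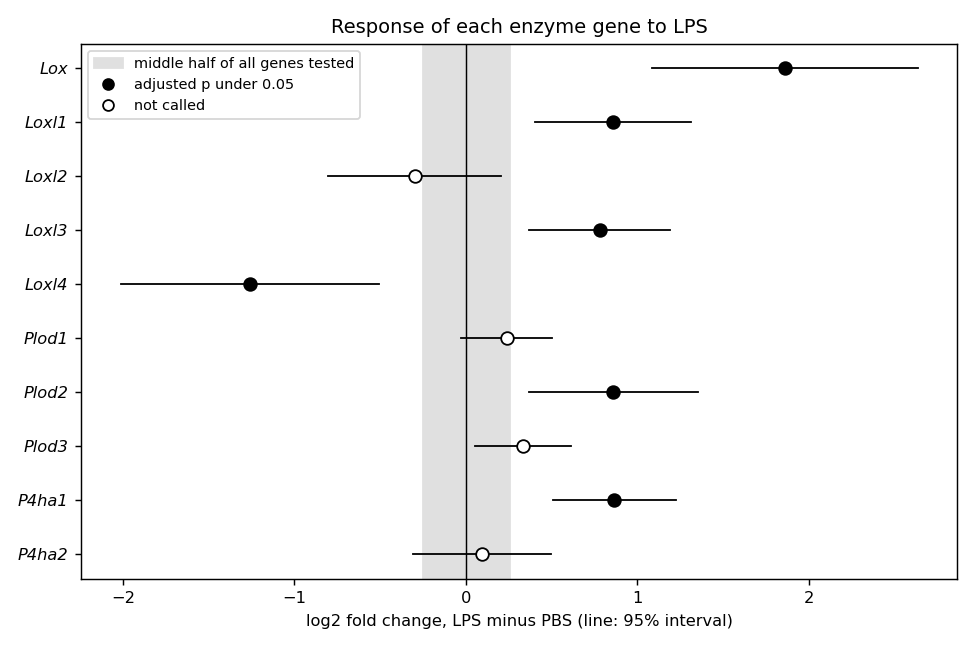
Log2 fold change of each enzyme gene, LPS minus PBS (x axis), with its 95% interval from the quasi-likelihood fit. Filled points passed an adjusted p under 0.05, and the grey band holds the middle 50% of the 16117 genes tested (-0.25 to 0.25). Lox stands farthest to the right at 1.86 and Loxl4 farthest to the left at -1.26.

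Among the lysyl hydroxylases, Plod2, which hydroxylates the telopeptide lysines at the ends of collagen chains, had 125, 234, 158 and 111 CPM in LPS replicates 1 to 4, against 94.9, 79.2, 82.7 and 89.4 CPM in PBS replicates 1 to 4. Every LPS library lay above every PBS library, and LPS replicate 2 stood highest. The PBS libraries varied by 8.05% around their mean and the LPS libraries by 34.8%. The log2 fold change of Plod2 was 0.86 (SE 0.22, adjusted p = 0.029, edgeR). It was 0.60, still called, without LPS replicate 2, and the call was lost without LPS replicate 3, PBS replicate 2, PBS replicate 3 or PBS replicate 4.

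Plod1, which acts on lysines within the triple helix, had 125, 138, 122 and 104 CPM in LPS replicates 1 to 4, against 117, 98.6, 110.3 and 88.2 CPM in PBS replicates 1 to 4. The groups overlapped, and the log2 fold change was 0.24 (SE 0.12, adjusted p = 0.197, edgeR; 95% interval -0.03 to 0.50). Plod3, which also adds the sugars that hydroxylysines carry, had 88.2, 82.3, 77.8 and 75.1 CPM in LPS replicates 1 to 4, against 76.3, 69.9, 58.4 and 52.3 CPM in PBS replicates 1 to 4. PBS replicate 1 alone reached into the range of the LPS libraries. The value of Plod3 was 0.33 (SE 0.12, adjusted p = 0.0982, edgeR; 95% interval 0.05 to 0.61), and it passed without PBS replicate 1, at 0.42. Plod3 shares 340 bases with Znhit1 in the RefSeq table, and the reads of the shared bases could belong to either. It also shares 107 bases with the microRNA Mir702. Lox shares 271 bases with the pseudogene Rps3a-ps12. P4ha1 shares 525 bases with the pseudogene Snrpd2l and 63 with a small nuclear RNA. Apart from Htra2 and Znhit1, none of these overlapping genes was among the counted genes.

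P4ha1 and P4ha2 are alternative catalytic subunits of the prolyl hydroxylase, each of which works in a complex with P4hb. P4ha1 had 111, 109, 141 and 113 CPM in LPS replicates 1 to 4, against 56.8, 51.0, 70.9 and 81.3 CPM in PBS replicates 1 to 4. Every LPS library lay well above every PBS library, with a mean of 118 ± 15.1 CPM in LPS and 65.0 ± 13.7 CPM in PBS. The log2 fold change of P4ha1 was 0.87 (SE 0.16, adjusted p = 0.00858, edgeR), and it was kept at 0.76 to 0.99 and called when any one library was left out. P4ha2 had 49.3, 75.7, 81.4 and 83.3 CPM in LPS replicates 1 to 4, against 62.9, 57.3, 70.6 and 80.8 CPM in PBS replicates 1 to 4. The groups lay on top of each other, with LPS replicate 1 the lowest of all 8 libraries. Its log2 fold change was 0.09 (SE 0.18, adjusted p = 0.754, edgeR; 95% interval -0.31 to 0.49).

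Ratios between genes within a library do not depend on how libraries are scaled, and their difference between groups does not depend on transcript length. They are given as a description, with no test of the difference. The ratio of P4ha1 to P4ha2 counts was 2.25, 1.44, 1.73 and 1.36 in LPS replicates 1 to 4, against 0.902, 0.890, 1.005 and 1.007 in PBS replicates 1 to 4. The PBS libraries were almost alike and every LPS library lay above them, with a mean log2 ratio of 0.73 ± 0.33 in LPS and -0.08 ± 0.10 in PBS. P4ha1 by itself was higher in every LPS library, so its ratio to a gene that did not change could also lie higher. What share of all genes has such a ratio to P4ha2 was not computed. The ratio of Plod2 to Plod1 was 1.01 to 1.70 in LPS and 0.750 to 1.01 in PBS, where PBS replicate 4 held a value just above that of LPS replicate 1, so that the groups overlapped narrowly. Those of Plod2 to Plod3 and of Plod3 to Plod1 overlapped as well.

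Relative to Lox, Loxl2 and Loxl4 were lower in every LPS library than in every PBS library. Lox itself was higher in every LPS library, at 114 CPM or more against at most 62.7 CPM in PBS. A gene that did not change could thus also have a lower ratio to Lox, and the levels of Loxl2 by itself overlapped between groups. The share of all genes with such a ratio to Lox was not computed. The ratio of Loxl2 to Lox was 0.406, 0.841, 0.338 and 0.591 in LPS replicates 1 to 4, against 2.93, 2.01, 3.04 and 1.12 in PBS replicates 1 to 4. The ratio of Loxl4 to Lox was 0.0339 to 0.0716 in LPS and 0.196 to 0.806 in PBS, a difference of -2.91 on the log2 scale. The ratios of Loxl1 to Lox and of Loxl3 to Lox overlapped between groups, with LPS replicate 2 the highest LPS library in both.

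**Figure D3:**
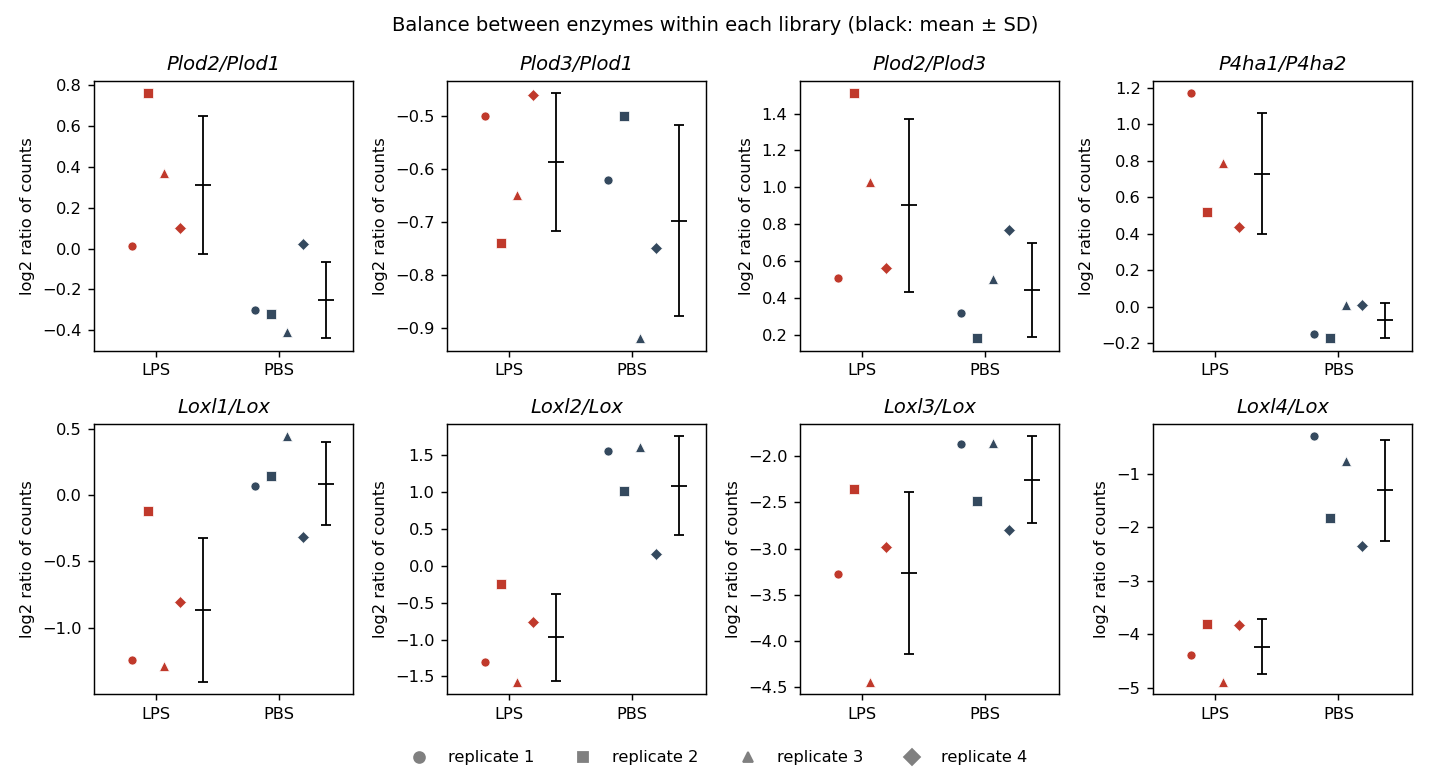
Log2 ratio of the raw counts of 2 enzyme genes within each library (y axis), LPS left of PBS, for 8 pairs. Marker shapes give the replicate number and the black bar the mean ± SD over 4 libraries. P4ha1/P4ha2 lies higher in every LPS library, and Loxl2/Lox and Loxl4/Lox lie lower, while the other 5 ratios overlap. Lox by itself lies higher in every LPS library, which also lowers the ratios to it. P4ha1 by itself lies higher too, which also raises its ratio to P4ha2.

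The substrate was set beside the enzymes through Col1a1, Col1a2 and Col3a1, the chains of the main fibrillar collagens. Col3a1 had 4877, 7301, 4987 and 4656 CPM in LPS replicates 1 to 4, against 4034, 3760, 3093 and 3453 CPM in PBS replicates 1 to 4, and rose by 0.61 on the log2 scale (SE 0.17, edgeR adjusted p = 0.0416). LPS replicate 2 held the most of all 3 chains, and the call of Col3a1 was lost without any one library except LPS replicate 4. The values of Col1a1 (0.17, adjusted p = 0.56) and Col1a2 (0.25, adjusted p = 0.377) did not pass, and without LPS replicate 2 they were -0.04 for Col1a1 and 0.04 for Col1a2. Relative to the summed counts of the 3 chains, Lox, Loxl3 and Plod2 lay higher in every LPS library than in every PBS library, Loxl4 lay lower in every LPS library, and the other 6 enzymes overlapped. Over all other genes tested, this ratio lay higher in every LPS library for 3.51% and lower in every LPS library for 18%. The ratio of Lox to these chains was 0.0140, 0.00545, 0.0235 and 0.00999 in LPS replicates 1 to 4, against 0.00373, 0.00497, 0.00328 and 0.00491 in PBS replicates 1 to 4. LPS replicate 2, with the most collagen and the least Lox of the LPS libraries, came closest to the PBS libraries. P4ha1 overlapped through LPS replicate 2 (0.00520, against 0.00404 to 0.00696 in PBS).

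The library that stood highest differed between the enzymes. LPS replicate 3 was the highest LPS library for 5 of the 10 genes and the lowest for 1, LPS replicate 2 was the highest for 3 and the lowest for 3, and LPS replicate 4 was the highest for 1 and the lowest for 4. PBS replicate 1 was the highest PBS library for 6 genes and the lowest for 0, and PBS replicate 4, the shallowest library, was the lowest for 5. The coefficient of variation in LPS ran from 7.10% for Plod3 to 48.5% for Lox, and in PBS from 8.05% for Plod2 to 54.3% for Loxl4.

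The proteins that work beside these enzymes in the endoplasmic reticulum were followed in a list of 14 chaperones and modifiers of collagen. Of these 4 rose, 1 fell and 9 did not pass, with a median log2 fold change of 0.22. Over all genes tested 9.49% were called higher and 7.45% lower. P4hb, the partner of P4ha1 and P4ha2 and a protein disulfide isomerase, had 1375, 1402, 1319 and 1213 CPM in LPS replicates 1 to 4, against 1077, 945, 902 and 921 CPM in PBS replicates 1 to 4. Its groups stood apart, and it rose by 0.47 (SE 0.10, adjusted p = 0.0141, edgeR). Serpinh1, the collagen chaperone HSP47, rose by 0.70 (adjusted p = 0.0256), and the proline isomerase Ppib by 0.46 (adjusted p = 0.0173). P4ha3, the remaining catalytic subunit of the prolyl hydroxylase, rose by 1.45 (adjusted p = 0.0203) at a level of 2.101 ± 0.349 CPM in LPS and 0.770 ± 0.300 CPM in PBS. The gene of the list that fell was P3h2, named after its value was seen, which hydroxylates prolines at another position (-0.52, adjusted p = 0.0462). The call of Serpinh1 was lost without any one library except LPS replicate 3, LPS replicate 4 and PBS replicate 1, and that of P4ha3 without LPS replicate 3, PBS replicate 2 or PBS replicate 3. Without PBS replicate 2 none of the 14 rose, and 2 rose without PBS replicate 3. The call of P3h2 was lost without any one library except LPS replicate 4 and PBS replicate 3.

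Of 10 tested genes of procollagen export and propeptide cleavage, 2 rose, 0 fell and 8 did not pass (median 0.24). Over all genes tested 9.49% were called higher and 7.45% lower. Those of the list that rose were the procollagen proteinases Bmp1 (0.59, adjusted p = 0.037) and Tll1 (1.31, adjusted p = 0.0419, or 0.84 without LPS replicate 3), edgeR. The call of Tll1 was also lost with no filter (adjusted p = 0.0505), with limma-voom (0.0759, or 0.0543 with library weights), with the replicate block (0.085) and with PBS replicate 1 and LPS replicate 2 both left out (0.0535). With 1 library left out it was kept only without LPS replicate 1 or LPS replicate 2, and that of Bmp1 only without LPS replicate 4 or PBS replicate 1. Bmp1, which cuts the propeptide of fibrillar procollagens and also activates pro-lysyl oxidase, had 107 ± 17.9 CPM in LPS and 71.4 ± 13.2 CPM in PBS. With 1 library left out the count of this list that rose was 2 without LPS replicate 4 or PBS replicate 1, where Tll1 was not among them, 1 without LPS replicate 1 or LPS replicate 2, and 0 without any other library. Without LPS replicate 4 or PBS replicate 1, 1 of its genes fell. Of the 8 tested fibrillar collagen chains and elastin, 1 rose (Col3a1), 1 fell and 6 did not pass (median 0.05), near the shares of all genes. The one that fell was Col11a1, a minor fibrillar chain, by 1.31 on the log2 scale (adjusted p = 0.0204), a call lost without LPS replicate 1, LPS replicate 3 or PBS replicate 2. Without LPS replicate 4 or PBS replicate 3, 2 of this list fell.

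Of 9 lysyl oxidase partners and genes of copper supply, 3 rose, 0 fell and 6 did not pass (median 0.01), beside 9.49% of all genes called higher and 7.45% lower. Efemp2, the fibulin that brings Lox to elastin and collagen, had 87.5, 112, 115 and 76.0 CPM in LPS replicates 1 to 4, against 59.6, 43.4, 40.6 and 35.8 CPM in PBS replicates 1 to 4. The groups did not overlap, and the log2 fold change was 1.12 (SE 0.19, adjusted p = 0.00607, edgeR). The copper importer Slc31a1 had 116, 103, 134 and 104 CPM in LPS replicates 1 to 4, against 63.0, 74.4, 74.0 and 72.8 CPM in PBS replicates 1 to 4, and rose by 0.69 (SE 0.10, adjusted p = 0.0041, edgeR). Atp7a, the pump that loads copper onto secreted enzymes such as Lox, rose 2.001-fold (SE 0.26 on the log2 scale, edgeR adjusted p = 0.0332). LPS replicate 3 had 126 CPM of Atp7a and the rest of the LPS group 57.1 to 63.2 CPM, and the log2 fold change was 0.65, still called, when that library was left out. The calls of Efemp2 and Slc31a1 were kept when any one library was left out, and that of Atp7a was lost without any one PBS library.

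**Figure D4:**
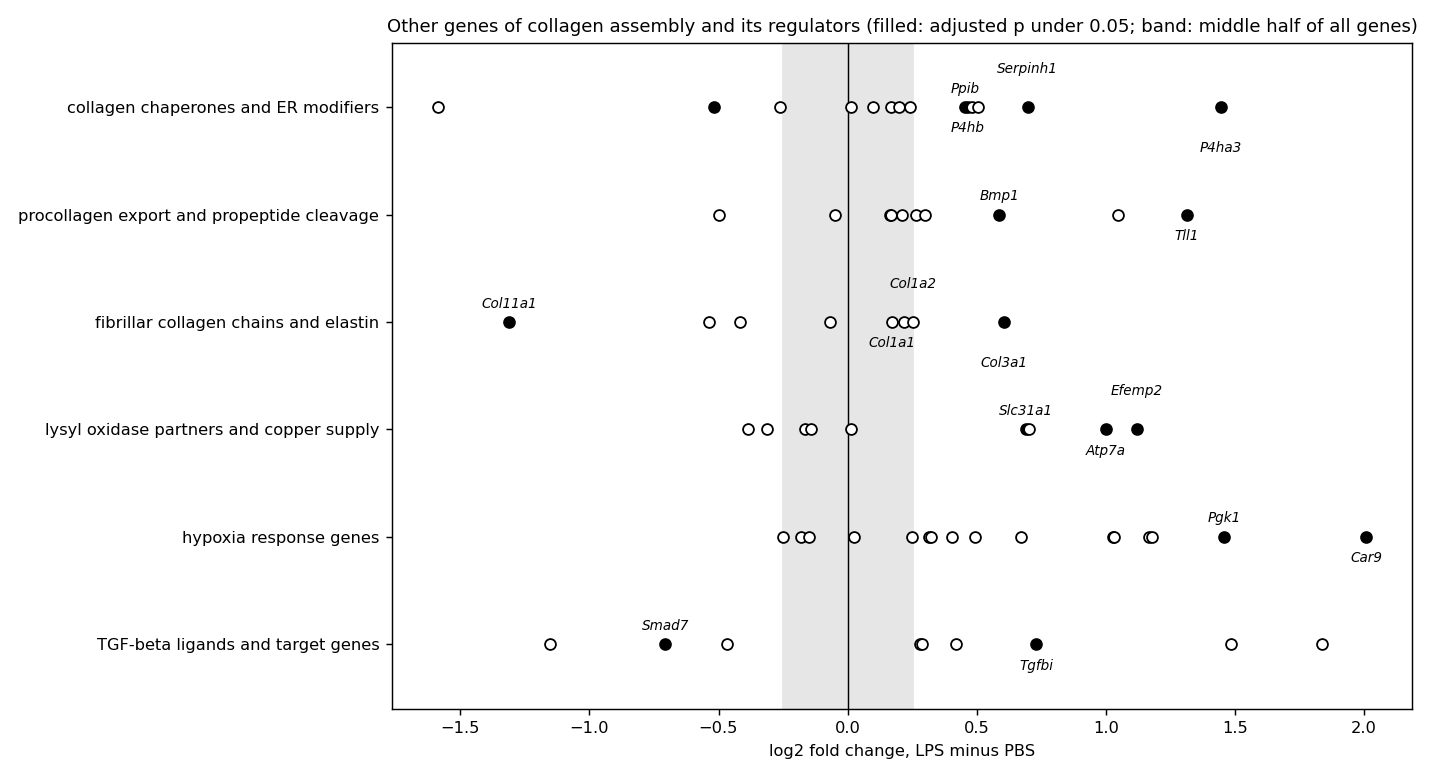
Log2 fold change, LPS minus PBS (x axis), of the tested genes in 6 lists (y axis) around the enzymes. Filled points passed an adjusted p under 0.05, names mark the genes the text describes by rule, and the grey band holds the middle 50% of all genes tested. Most points of every list are open, and the filled ones lie on the right except Col11a1, Smad7 and an unnamed point at -0.52 (P3h2).

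A list of 16 hypoxia response genes held 2 that rose and 0 that fell, while 14 did not pass (median 0.45, or 0.71 without PBS replicate 3). Over all genes tested 9.49% were called higher and 7.45% lower, so the count that rose was near the share of all genes. The glycolytic kinase Pgk1 rose by 1.46 (SE 0.18, adjusted p = 0.00184, edgeR) and the carbonic anhydrase Car9 by 2.01 (SE 0.41, adjusted p = 0.0134, edgeR), and both calls were kept when any one library was left out. Hif1a, the hypoxia-inducible factor subunit, named after its value was seen, had 204, 222, 519 and 206 CPM in LPS replicates 1 to 4, against 122, 119.8, 153 and 169 CPM in PBS replicates 1 to 4. Its log2 fold change was 1.03 (edgeR adjusted p = 0.0571), and without LPS replicate 3 it was 0.58 and was called (adjusted p = 0.0325). DESeq2 called Hif1a with all libraries (adjusted p = 0.00816). None of the remaining alternatives called Hif1a, with adjusted p from 0.0513 (limma-voom with library weights) to 0.146 (edgeR without PBS replicate 2). The summed level of the list was 2575 to 4205 CPM in LPS and 2240 to 2597 CPM in PBS, with LPS replicate 3 the highest and LPS replicate 2 the lowest of the LPS libraries. Among the LPS libraries, Lox and P4ha1 were highest in replicate 3, and so were Loxl1, Loxl2, which did not pass, and Loxl4, which fell. Plod2 was highest in LPS replicate 2, as were Loxl3 and Plod1. The part of these genes in the values of the enzymes was not tested. Of 9 TGF-beta ligands and target genes, 1 rose, 1 fell and 7 did not pass (median 0.29, or 0.47 without LPS replicate 2). These counts were near the shares of all genes as well. Tgfbi, a matrix protein induced by TGF-beta, rose by 0.73 (adjusted p = 0.0346), and Smad7, a feedback inhibitor of the pathway, fell by 0.71 on the log2 scale (adjusted p = 0.0352), edgeR. The call of Tgfbi was lost without any one library except LPS replicate 4 and PBS replicate 1, and that of Smad7 without LPS replicate 1, LPS replicate 2, LPS replicate 3, PBS replicate 2 or PBS replicate 4. Without LPS replicate 4, 2 genes of the list rose and 2 fell, and without PBS replicate 1, 2 rose.

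Markers of some of the cells that a piece of cervix can hold also differed between the groups. The shares of all genes tested were 9.49% called higher and 7.45% called lower. Of 9 fibroblast markers 3 rose and 0 fell (median 0.14), and their summed level was 4092 to 6354 CPM in LPS, highest in replicates 2 and 3, and 2147 to 2461 CPM in PBS. The largest part of this sum was Dcn, with 2621 to 4199 CPM in LPS and 1200 to 1282.5 CPM in PBS. Dpt, Pi16, Mfap5 and Fap had negative log2 fold changes and Thy1 and Twist2 positive ones, none of them called. Of 8 macrophage markers 5 rose and 0 fell, at 1079 to 1812 CPM in LPS and 510 to 875 CPM in PBS, and of 7 neutrophil markers 6 rose and 0 fell, at 403 to 1625 CPM in LPS and 30.3 to 51.5 CPM in PBS. Of 6 tested squamous epithelium markers 1 fell and 0 rose, at 3160 to 4199 CPM in LPS and 4862 to 9184 CPM in PBS. Of 7 endothelial markers 1 fell and 0 rose, at 483 to 702 CPM in LPS, inside the range of 398 to 882 CPM in PBS. The counts of 1 in the squamous and endothelial lists say little beside the share of all genes. Of 6 tested red cell markers 4 fell and 0 rose, at 110 to 629 CPM in LPS and 682 to 2122 CPM in PBS. The endothelial count that fell was 0 without any one LPS library or PBS replicate 2 and 2 without PBS replicate 4, and that of red cell markers was 0 without LPS replicate 1, LPS replicate 4 or PBS replicate 2 and 2 without PBS replicate 4. Krt4, Col2a1 and Tll2 were among the listed genes that did not pass the filter on low counts. Trophoblast and decidual prolactin markers were near 0, with at most 0.228 CPM summed over 4 genes, of which Prl8a2 and Prl5a1 had no count. What part these cell types have in the values of the enzymes was not tested.

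The libraries held 33191039 to 40634384 counts, and each enzyme gene had between 292 and 12475 counts per library, so that counting error was small beside the spread between libraries. PBS replicate 1 was the highest PBS library for most of the enzymes and LPS replicate 2 the highest LPS library for the collagen chains. With this pair of libraries left out, a choice made after seeing the data, 4 of the enzyme genes rose and 0 fell: Lox (2.01), Loxl3 (0.80), Plod2 (0.65) and P4ha1 (0.84) passed, and Loxl1 (0.79) and Loxl4 (-0.77) did not.

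**Figure D5:**
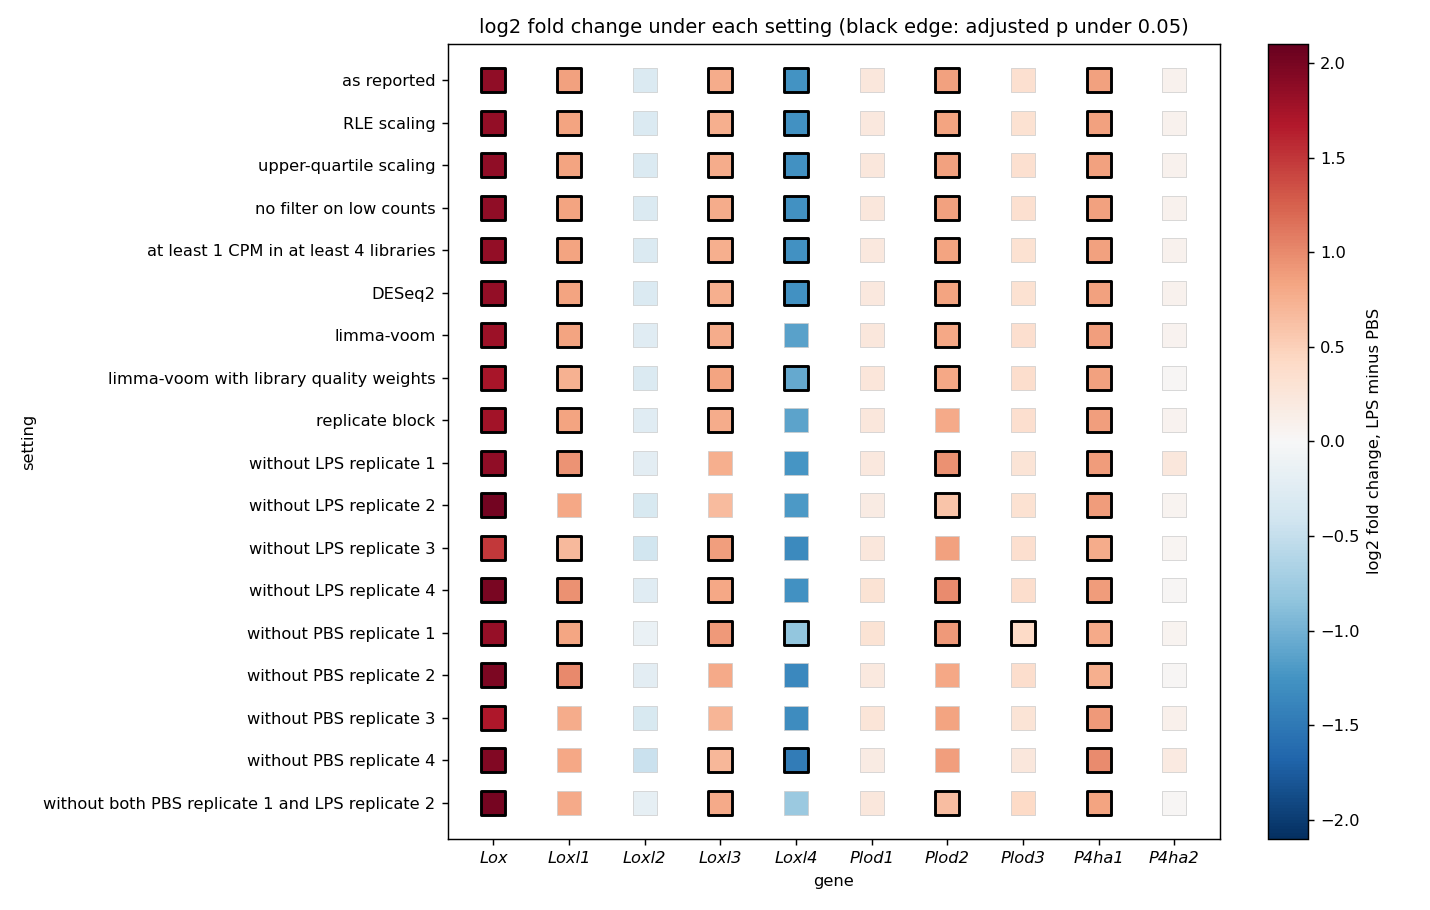
Log2 fold change of each enzyme gene (columns) under the reported fit and each alternative (lines down the page), coloured by value. Squares with a black edge passed an adjusted p under 0.05. Lox and P4ha1 have a black edge throughout, and Loxl4 loses it in most of the fits that leave out a library.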

How the data were processed

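Libraries were made from TRIzol-extracted RNA with the VAHTS Universal V6 kit, per the labels' protocols. The deposited values are raw counts per gene symbol and library, as the authors left them, with nothing pooled. The tools in the submitters' processing notes are HISAT2, HTSeq, fastp and R 3.2.0, with build mRatBN7.2. For annotation and strand setting, nothing was given in the sources used here. Columns were matched to samples by library name.

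The filter filterByExpr (by group) kept 16117 of 22854 genes with a count. Counts were TMM-scaled and tested on all 8 libraries with edgeR 4.0.16 in R 4.3.3 (robust quasi-likelihood, no covariate), a procedure also tested on simulated data. The SE is the size of the log2 fold change divided by the square root of F. The enzymes, lists and tests were chosen with earlier results of these data known. Named are all 10 enzymes, Col1a1, Col1a2, Col3a1 and at most 4 called genes per pathway list, by lowest adjusted p. Pcolce2, Trp63 and Prl3d1 were not matched to a symbol of the table. The alternatives tried were scaling by RLE or by the upper quartile, testing without a filter, a filter of 1 CPM in 4 libraries, limma-voom 3.58.1 (plain or with library weights), DESeq2 1.42.0, leaving out each library, and the replicate number as a block. LPS replicate 4 has the number 5 in its library name, and replicate numbers here are those of the sample titles. Between replicates, chi-square per degree of freedom was 54.1 or more, so none was a repeat of another. Promoters are RefSeq's (GRCr8), and no coordinate was converted.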

Additional observations from a re-analysis of the deposited data

Results flagged for a closer look

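Single libraries that stood far from the other 3 of their group, relative to the range of the group (Dixon's criterion at the 95% level), were found in 11 of 92 groups checked, and chance alone gives about 1 in 20. Among the enzymes this was P4ha1 in LPS replicate 3 (141 CPM). LPS replicate 2 stood above the rest of its group for Col1a1 (8317 CPM), Col1a2 (5312 CPM) and Col3a1 (7301 CPM), and PBS replicate 3 stood below its group for Col1a1 (4395 CPM). LPS replicate 3 stood above its group for Tll1 (35.7 CPM) and Atp7a (126 CPM), and PBS replicate 1 below its group for Slc31a1 (63.0 CPM). PBS replicate 4 stood below its group for the log2 ratios to fibrillar collagen of Loxl2 (-7.51) and Plod3 (-7.89), and it had the fewest counts, 33191039.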

How the results depend on the processing

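Over the 10 enzymes and 17 alternatives, 147 of 170 log2 fold changes kept their direction and their side of the threshold, 22 kept the direction but lost the call, 1 gained it, and 0 changed direction. The pooled count includes Loxl2, Plod1, Plod3 and P4ha2, which had no call to lose. All lost calls were those of Loxl1, Loxl3, Loxl4 and Plod2. With 1 library left out, the call was lost in 3 fits for Loxl1, 4 for Loxl3, 6 for Loxl4 and 4 for Plod2. The count of enzymes that rose was 5 under each scaling, filter and tool, and 2 to 6 with 1 library left out. The count that fell was 1, but 0 with limma-voom (Loxl4 -1.14, adjusted p = 0.0662), 0 with the replicate block, 0 with PBS replicate 1 and LPS replicate 2 both left out (added after seeing the data), and 0 to 1 with 1 library left out. Over all genes, 1529 were higher (904 to 1385 with 1 library left out) and 1200 lower (563 to 1199, or 2089 with DESeq2). Col1a1 ran from -0.0358 (without LPS replicate 2) to 0.248 (without LPS replicate 1), and was -0.0001 with the pair left out. With DESeq2, 5 hypoxia genes rose, and 3 TGF-beta genes rose and 3 fell. DESeq2 also called more of all genes than the reported fit, 2099 higher and 2089 lower. The count of smooth muscle markers that fell was 3 with no filter or limma-voom and 0 with the block or with the pair left out, and that of red cell markers was 0 with the block. The other list counts that moved by over 1.5 times with all libraries or with the pair left out were of 0 to 2 genes and moved by 1. With 1 library left out, list medians ran from 0.15 to 0.31 (export), -0.04 to 0.20 (fibrillar chains), -0.12 to 0.16 (lysyl oxidase partners), 0.31 to 0.71 (hypoxia), 0.24 to 0.47 (TGF-beta) and 0.02 to 0.33 (fibroblast markers). The cause of these shifts was not tested.

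Replicate numbers showed no clear pairing of the libraries. Deviations from the group means correlated at -0.134, -0.181, -0.0867 and 0.208 for numbers 1 to 4 of the sample titles (the library name of LPS replicate 4 has a 5). Of the LPS libraries, 1 correlated best with its own number. These values carry no test and cannot exclude a pairing. The replicate block gave 4 enzymes higher and 0 lower, and 1151 genes higher and 845 lower. Plod2 (0.80, adjusted p = 0.0745) and Loxl4 (-1.12, adjusted p = 0.0683) were not called with it.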
